A study of Mus musculus with 9 samples.

Results

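The Egr transcription factors and their Nab corepressors were followed in the striatum of R6/2 and wild-type mice as a set of 6 genes, Egr1, Egr2, Egr3, Egr4, Nab1 and Nab2. Members were taken by symbol: every probe set that the platform annotation assigns to exactly 1 gene of this set was used, which gave 10 of the 34945 probe sets that name 1 gene. In comparisons over genes, each of the 6 members, like each of the 18194 genes tested, was represented by its probe set with the highest mean over the 9 arrays, called the main probe set here. No probe set named a member together with another gene. Egr2 and Egr3 had 2 probe sets each, Nab1 had 3, and Egr1, Egr4 and Nab2 had 1 each.

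Striatal RNA from 9 female mice of a mixed C57Bl/6 and CBA strain was hybridised, 1 array per mouse. The 5 R6/2 mice carried the R6/2 transgene, a fragment of the human huntingtin gene holding exon 1 with an expanded CAG repeat under the human huntingtin promoter, and are a model of Huntington disease; the 4 wild-type mice carried no transgene. All animals were 12 weeks old. By the labels' finer ages, wild-type 46, 47, 49 and 66 and R62_86 were 85 days old, against 83 for R62_95, R62_105, R62_107 and R62_109. Values are log2 expression, so a difference of 1 is a doubling, and no treatment is named in the labels.

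Egr1 to Egr4 are zinc finger transcription factors that bind the same GC-rich DNA element. In neurons they are immediate early genes, transcribed within minutes of synaptic activity through calcium and MAP kinase signals that act on the serum response factor SRF and on CREB at their promoters. Nab1 and Nab2 bind a short inhibitory domain of Egr1, Egr2 and Egr3 and repress transcription at their target genes, in part through the NuRD chromatin remodelling complex. Nab2 is itself a target of Egr factors, so the group contains a feedback loop. Egr4 lacks the domain that Nab proteins bind.

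Upstream sequence is shown for Egr2, Egr4 and Nab1 because it holds letters that match elements bound by SRF, CREB or the Egr factors themselves. It comes from the 250 bases before each listed start in RefSeq promoters of the GRCm38.p6 build, which listed Egr2, Egr4, Nab1 and Nab2 among the 6 members. Capitals mark matches on either strand to the CArG box bound by SRF, to the core TGACG of the cyclic AMP response element bound by CREB, or to the Egr element GCGNGGGCG. The Egr4 window is whole, chr6:85513590-85513839 on the minus strand, directly before the annotated gene (6:85511121-85513589). For Egr2 (10:67534469-67542188) and Nab1 (1:52455849-52500712) the windows lie inside the annotated span of the gene, and only the sites are printed. The Egr2 stretch is chr10:67537793-67537822 on the plus strand, bases -76 to -47 from a start, and the Nab1 elements come from chr1:52500449-52500698 on the minus strand, at -141 to -133, -109 to -101 and -38 to -30.
Egr2: cagtCCATATATGGgcagcgaCGTCAcggg
Egr4: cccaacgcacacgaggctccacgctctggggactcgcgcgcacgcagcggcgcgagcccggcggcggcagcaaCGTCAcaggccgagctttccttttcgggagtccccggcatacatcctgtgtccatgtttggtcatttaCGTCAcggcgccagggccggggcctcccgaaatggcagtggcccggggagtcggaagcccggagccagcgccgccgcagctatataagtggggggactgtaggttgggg
Nab1 element 1: CGCCCACGC
Nab1 element 2: GCGTGGGCG
Nab1 element 3: GCGGGGGCG
The Egr2 stretch holds a CArG box at -72 to -63 and, on the opposite strand, a core at -55 to -51, and a further core lies upstream at -111 to -107. The Egr4 window holds 2 cores and no CArG box in these letters, and the Nab1 window holds 3 Egr elements and 1 core. Of all 32851 promoter windows, 1.47% held a CArG box, 17.8% the core and 4.70% the Egr element. The full palindrome TGACGTCA, which contains the core, was in 1.55% of windows and in none of those of the members. Egr2 has 5 listed starts: 3 windows share the CArG box shown, another, chr10:67537316-67537565, holds a different one, and the most distant holds none. The Nab2 window, chr10:127666704-127666953, held none of these motifs. A match is a run of letters and was not measured as a binding site here.

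Of the 6 members, 5 were lower in R6/2 striatum and 0 were higher past the threshold, an adjusted p of 0.05 over all genes in limma. Egr2 fell to 0.139 of the wild-type level (95% interval 0.0937 to 0.206) and Egr3 to 0.474 (0.386 to 0.583). Egr4 fell to 0.595 (0.461 to 0.769), Egr1 to 0.632 (0.495 to 0.807) and Nab2 to 0.738 (0.622 to 0.875). Nab1, at 1.12 of the wild-type level (0.993 to 1.25), did not pass. In the same fit 7.57% of all genes were called lower, 9.27% higher and 16.8% in either direction. The same 5 members had no overlap between the groups, as had 8.09% of all genes downwards, 9.18% upwards and 17.3% in either direction. The median difference over all genes was -0.02 as deposited and -0.12 after centring on housekeeping genes. Rises were 55.0% of calls on the first scale and 23.7% on the other, and the same 5 members were lower on both.

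**Figure D1:**
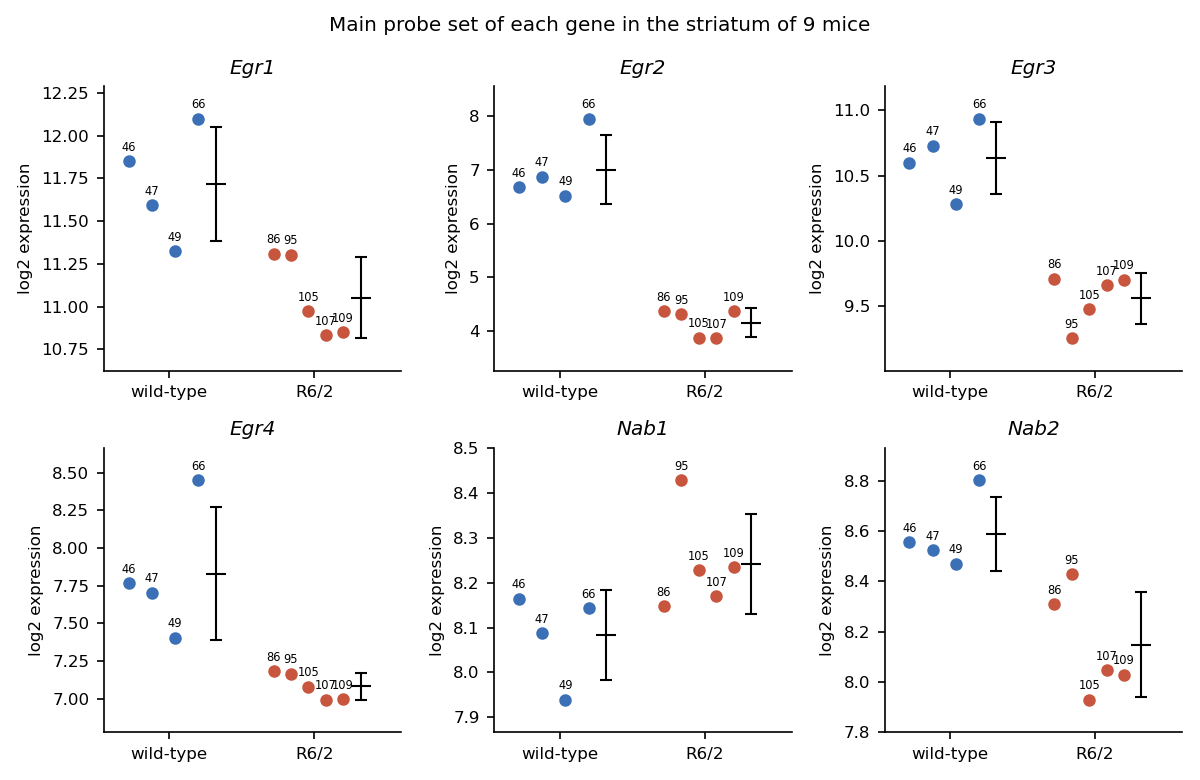
Log2 expression (vertical axes, different ranges) of the main probe set of each gene in 4 wild-type (blue) and 5 R6/2 (red) mice, each point a mouse with its animal number, black bars mean and SD. The groups do not overlap for Egr1, Egr2, Egr3, Egr4 and Nab2 and overlap for Nab1; wild-type 66 is the highest mouse in each of those 5 panels.

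**Figure D2:**
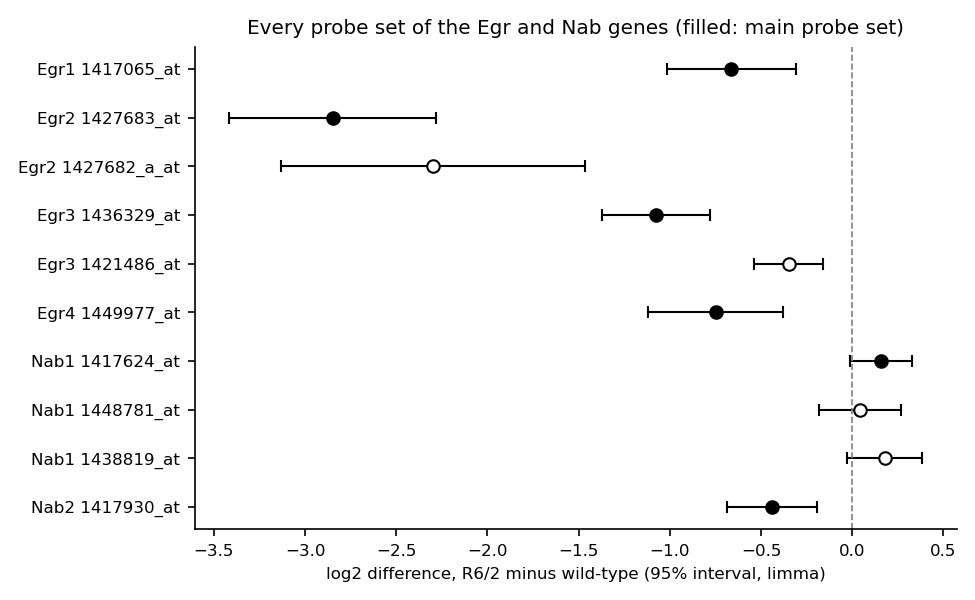
Log2 difference, R6/2 minus wild-type, of all 10 probe sets with 95% intervals from limma, filled for the main probe set of a gene. The intervals of all Egr and Nab2 probe sets lie below 0 and those of the 3 Nab1 probe sets include 0.

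Egr2 (Krox-20), best known for its role in myelinating Schwann cells and hindbrain segmentation and induced by activity in forebrain neurons, had the lowest difference of the set and the 2nd lowest of all 18194 genes. Its main probe set read 6.68, 6.88, 6.52 and 7.95 in wild-type mice 46, 47, 49 and 66, and 4.37, 4.31, 3.87, 3.87 and 4.37 in R62_86, R62_95, R62_105, R62_107 and R62_109. Every R6/2 mouse lay at least 2.15 below the lowest wild-type mouse, and wild-type 66 stood above the other controls. The difference was -2.85 ± 0.26 (SE, limma adjusted p = 0.000143), from 7.01 ± 0.65 (SD, n = 4) to 4.16 ± 0.26 (SD, n = 5). The other Egr2 probe set read 5.82, 6.00, 4.99 and 7.39 in the same wild-type mice and 3.84, 3.90, 3.89, 3.39 and 3.74 in the R6/2 mice. It fell by 2.30 ± 0.38 (SE, limma adjusted p = 0.0043 over all probe sets), again without overlap. In R6/2 mice 31.0% of the array's probe sets were dimmer than the main Egr2 probe set, against 69.2% in wild-type mice. RMA compresses differences among dim probe sets, and whether it did so here was not tested.

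Egr3, an activity-induced factor that regulates Arc and a GABA receptor subunit gene in neurons, gave the next lowest difference. Its main probe set read 10.60, 10.73, 10.28 and 10.94 in wild-type mice 46, 47, 49 and 66, and 9.71, 9.25, 9.48, 9.66 and 9.70 in R62_86, R62_95, R62_105, R62_107 and R62_109. The groups were 0.57 apart at their nearest mice, with R62_95 the lowest. The difference was -1.08 ± 0.13 (SE, limma adjusted p = 0.000638). A dimmer Egr3 probe set read 6.42, 6.503, 6.40 and 6.39 in wild-type mice and 6.07, 5.82, 6.09, 6.21 and 6.21 in R6/2 mice. It also fell without overlap, but by 0.35 ± 0.08 (SE, limma adjusted p = 0.025 over all probe sets), to 0.785 of the wild-type level, so the size of the Egr3 change depended on the probe set.

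Egr4, the member not bound by Nab proteins, read 7.77, 7.70, 7.40 and 8.45 in wild-type mice 46, 47, 49 and 66. In R62_86, R62_95, R62_105, R62_107 and R62_109 it read 7.18, 7.16, 7.08, 6.99 and 6.996. The R6/2 mice lay close together, with an SD of 0.09 against 0.44 in wild-type mice, and all lay below wild-type 49. The difference was -0.75 ± 0.17 (SE, limma adjusted p = 0.0124).

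Egr1 (Zif268), widely used as a marker of recent neuronal activity, was brighter than 98.2% of probe sets even in R6/2 mice. It read 11.85, 11.59, 11.32 and 12.10 in wild-type mice 46, 47, 49 and 66, and 11.31, 11.30, 10.97, 10.83 and 10.85 in R62_86, R62_95, R62_105, R62_107 and R62_109. The difference was -0.66 ± 0.16 (SE, limma adjusted p = 0.0173). The groups did not overlap, but the gap between wild-type 49 and R62_86 was only 0.02, so this separation is narrow.

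The corepressor genes gave unequal values. Nab2 read 8.56, 8.52, 8.47 and 8.80 in wild-type mice 46, 47, 49 and 66, and 8.31, 8.43, 7.93, 8.05 and 8.03 in R62_86, R62_95, R62_105, R62_107 and R62_109. R62_95 came within 0.04 of wild-type 49, and the other 4 R6/2 mice were lower. The difference was -0.44 ± 0.11 (SE, limma adjusted p = 0.022), and it did not pass without wild-type 66 (-0.37, adjusted p 0.0638), R62_105 (-0.38, 0.051) or R62_109 (-0.41, 0.0549).

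Nab1 read 8.16, 8.09, 7.94 and 8.14 in wild-type mice 46, 47, 49 and 66, and 8.15, 8.43, 8.23, 8.17 and 8.24 in R62_86, R62_95, R62_105, R62_107 and R62_109 on its main probe set. The groups overlapped, and the difference was 0.16 ± 0.08 (SE, limma adjusted p = 0.185), with a 95% interval from -0.0096 to 0.33. An exact two-sided permutation test of this probe set alone gave p = 0.0397, before any adjustment. The other Nab1 probe sets gave 0.04 ± 0.10 and 0.18 ± 0.09 (SE, limma adjusted p 0.827 and 0.259 over all probe sets). The latter was dim, at 3.66 to 3.83 in wild-type and 3.70 to 4.15 in R6/2 mice. R62_95 was the highest R6/2 mouse on the main and the dim probe set, at 8.43 and 4.15, and the lowest on the remaining one, at 6.84. That array also stood apart in the log2 signal of the 3' minus the 5' control probe sets, a measure of RNA quality. For Gapdh it gave 0.40 against -0.22 to -0.06 on the other 8 arrays, and for beta-actin 1.24 against 0.45 to 0.79. Its part in the Nab1 values was not tested; without R62_95 Nab1 gave 0.11 (adjusted p 0.292) and Nab2 -0.51 (adjusted p 0.00916).

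Whether members changed unequally was tested on the difference between their log2 values within each array, with the exact two-sided permutation test over the mice and adjustment over 15 pairs. In 10 pairs the change was unequal, each with an exact permutation p of 0.00794, the smallest this design allows, and an adjusted p of 0.0119. The Egr2 difference minus that of the other member was -1.77 for Egr3, -2.10 for Egr4, -2.41 for Nab2 and -3.01 for Nab1, and the Egr1 difference minus that of Egr2 was 2.19. On its main probe set Egr3 changed by -0.64 relative to Nab2 and -1.23 relative to Nab1. The dimmer Egr3 probe set fell by 0.35, less than Nab2 with 0.44, and was not tested in pairs, so the first of these depends on the probe set. Nab1 differed from all 5 others, and relative to Nab2 its difference was 0.60. The 5 remaining pairs did not pass: Egr1 against Egr4 (0.08, exact permutation adjusted p 0.532), Egr1 against Egr3 (0.41, 0.0916), Egr1 against Nab2 (-0.22, 0.0916), Egr4 against Nab2 (-0.31, 0.0916) and Egr3 against Egr4 (-0.33, 0.0935). In the order of differences, Egr2 and Nab1 thus stood apart at the ends, and among Egr3, Egr4, Egr1 and Nab2 neighbours were not separated.

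The same wild-type mice lay at the extremes for most members. Wild-type 66 was highest and wild-type 49 lowest for Egr1, Egr2, Egr3, Egr4 and Nab2. Among R6/2 mice, R62_86 and R62_95 were the highest for Egr1, Egr4 and Nab2, while R62_95 was the lowest for Egr3. Described across the 9 arrays as deviations from the genotype means, which share the array and its normalization, Pearson's correlation was 0.90 between Egr2 and Egr4, 0.84 between Egr1 and Egr4 and 0.84 between Egr1 and Nab2. It was 0.10 between Egr3 and Nab2 and -0.07 between Egr3 and Nab1. With 9 arrays these are descriptions only.

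The genes with the most similar deviations were sought among 8892 genes brighter than the median (clone names left out), by the same correlation over 9 arrays. They were Pianp (0.95), C2cd3 (0.95) and Phf2 (0.94) for Egr1, and Mest (0.96), Sec14l1 (0.95) and Gtpbp1 (0.94) for Egr2. For Egr3 they were Spry1, an inhibitor of receptor tyrosine kinase signalling (0.96), Camk4, a calmodulin-dependent kinase (0.93), and Pigl (0.93). Those of Egr4 were Mink1 (0.95), Zmat3 (0.95) and Map3k20 (0.95), those of Nab1 Pagr1a (0.98), Uimc1 (0.97) and Hars2 (0.97), and those of Nab2 Fcho1 (0.97), Synpo (0.97) and Srf, the serum response factor (0.96). Being the highest 3 of 8892 correlations over 9 arrays for each member, these values are high by selection and are descriptions only. Likeness between mice did not go with a like genotype difference in every case. Among them Camk4 (-1.34 ± 0.14), Sec14l1 (-0.97 ± 0.09), Srf (-0.67 ± 0.09), Fcho1 (-0.52 ± 0.11), Mink1 (-0.50 ± 0.11) and Synpo (-0.47 ± 0.12) fell (SE, limma adjusted p 0.000172 to 0.0201). Map3k20 (0.58 ± 0.12), Phf2 (0.52 ± 0.10), Hars2 (0.51 ± 0.10) and Uimc1 (0.31 ± 0.07) rose (adjusted p 0.00527 to 0.0145). The other 8 did not pass, from Spry1 at -0.29 to Pagr1a at 0.30. Over all genes, dim ones included, 7.57% were called lower and 9.27% higher. Spry1 passed with quantile scaling (adjusted p 0.0456), housekeeping centring (0.0219), array weights (0.0444) or without wild-type 49 (0.0383), and Mest without wild-type 66 (0.28, adjusted p 0.0299). The calls of Phf2, Map3k20 and Synpo ended when a gene's probe sets were averaged (adjusted p 0.15, 0.217 and 0.342) and that of Uimc1 with housekeeping centring (0.201). Synpo also did not pass without wild-type 66 (0.0591) or R62_109 (0.0505).

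A list of 30 other activity-induced genes had 14 that fell, 0 that rose and 16 that did not pass, with a median difference of -0.47 against -0.02 over all genes. The falls were 46.7% of the list, against 7.57% of all genes called lower and 9.27% called higher. Shares over all genes, here and for the lists below, include dim genes. With the brighter 50% of genes tested alone 2710 passed, against 3065 over all 18194, so calls were more frequent among bright genes. The lists were chosen with earlier results of these data known, so their shares are descriptions only. Npas4, a neuron-specific activity-induced factor, read 7.50, 8.01, 7.40 and 7.97 in wild-type mice 46, 47, 49 and 66, and 5.82, 5.69, 4.49, 4.74 and 5.12 in R62_86, R62_95, R62_105, R62_107 and R62_109. Its difference was -2.55 ± 0.26 (SE, limma adjusted p = 0.000285), with no overlap. Homer1, a postsynaptic scaffold gene, fell by 0.82 ± 0.07 (adjusted p 0.000143) and Inhba, an activin subunit gene, by 0.84 ± 0.09 (adjusted p 0.000315). The member with the best support in the other direction, the MAP kinase phosphatase gene Dusp4, gave 0.26 ± 0.10 and did not pass (adjusted p 0.0948), and 1 gene of the list was higher without wild-type 46. Named after their values were seen, Fos (-0.87, adjusted p 0.07), Nr4a1 (-0.97, 0.0548), Fosb (-0.03, 0.891) and Bdnf (0.16, 0.584) did not pass. Of the 30 genes of this list, 23 had a listed promoter. Of these 23 genes, 16 held the TGACG core, 7 the Egr element and 1 a CArG box in at least 1 window. Over all genes with a listed promoter the shares were 19.8%, 5.33% and 1.62%.

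For the route that induces Egr genes, 24 of 31 fixed genes were measured, of which 6 fell, 3 rose and 15 did not pass, at a median of -0.05. The falls were 25.0% of the measured genes, against 7.57% of all genes, dim ones included. The rises were 12.5%, near the 9.27% of all genes, and with housekeeping centring 6 fell and 1 rose. Srf read 8.12, 8.07, 8.09 and 8.32 in wild-type mice 46, 47, 49 and 66, and 7.65, 7.63, 7.30, 7.44 and 7.38 in R62_86, R62_95, R62_105, R62_107 and R62_109. It fell by 0.67 ± 0.09 (SE, limma adjusted p = 0.000959), and R62_86 and R62_95 were the highest R6/2 mice, as for Egr1 and Nab2. Srf was named for its likeness to Nab2 over these arrays, so a shared order of mice follows in part from that choice. Rps6ka5, the kinase MSK1 that phosphorylates CREB and histone H3, fell by 1.18 ± 0.11 (adjusted p 0.000172) and Camkk2, which activates Camk4, by 0.91 ± 0.09 (adjusted p 0.000238). Creb1 rose by 0.50 ± 0.06 (adjusted p 0.000434), which did not pass when its probe sets were averaged (adjusted p 0.153). The SRF partner genes Elk1 (-0.19), Elk3 (0.12), Elk4 (0.08), Mrtfa (-0.18) and Mrtfb (-0.20), named after their values were seen, did not pass (adjusted p 0.164 to 0.637).

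Among genes described as Egr targets in other tissues or in neurons, 19 of 24 fixed genes were measured, of which 4 fell, 2 rose and 13 did not pass, at a median of -0.13. The falls were 21.1% of the measured genes, against 7.57% of all genes. The rises were 10.5%, near the 9.27% of all genes, and with housekeeping centring 5 fell and 1 rose. Arc, a synaptic gene bound by Egr1 and Egr3 and shared with the activity list, was 9.18 in wild-type and 7.54 in R6/2 mice on average, a difference of -1.64 ± 0.30 (SE, limma adjusted p = 0.00439). Pmp22, a peripheral myelin gene regulated by Egr2, fell by 0.66 ± 0.12 (adjusted p 0.00468), and Gabra4, a GABA receptor subunit gene regulated by Egr3, by 0.51 ± 0.11 (adjusted p 0.00885). Syn1, a synaptic vesicle gene, read 10.56, 10.29, 9.40 and 10.35 in wild-type mice 46, 47, 49 and 66 and 10.67 to 11.03 in R6/2 mice. It rose by 0.72 ± 0.20 (adjusted p 0.0299), with wild-type 49 far below the other controls. The call did not hold without wild-type 47 (0.0536), R62_86 (0.0642), R62_105 (0.0677) or R62_109 (0.0668). The other rise, Syn2 (0.29, adjusted p 0.0422; named after its value was seen), was lost without the same mice, which left 0 rises, and 1 rise was left without wild-type 49, wild-type 66 or R62_95.

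Of 14 subunits of NuRD, the complex that Nab2 recruits, all measured, 5 rose, 1 fell and 8 did not pass, at a median of 0.16. The rises were 35.7% of the list, against 9.27% of all genes, and the fall was 7.14%, near the 7.57% of all genes. After housekeeping centring 0 rose and 1 fell. The count of rises was 3 without wild-type 66, R62_86, R62_105 or R62_109. The histone deacetylase gene Hdac1 rose by 0.48 ± 0.08 (SE, limma adjusted p = 0.00286) and Mta3 by 0.41 ± 0.09 (adjusted p 0.0119), while the methyl-DNA binding gene Mbd2 fell by 0.35 ± 0.07 (adjusted p 0.00753). With housekeeping centring the adjusted p was 0.0518 for Hdac1 and 0.0656 for Mta3. Chd4, the remodelling ATPase that Nab2 binds, gave -0.15 and did not pass (adjusted p 0.25; named after its value was seen).

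Of 16 other zinc finger factors of GC-rich sites, 14 were measured, of which 1 fell, 3 rose and 10 did not pass, at a median of 0.02. The fall was 7.14% of the measured genes, near the 7.57% of all genes, and the rises were 21.4%, against 9.27%. With housekeeping centring 3 fell and 2 rose, and with quantile scaling 2 fell and 3 rose. Klf16 fell by 0.90 ± 0.12 (SE, limma adjusted p = 0.000777). Klf6 (0.64 ± 0.16, adjusted p 0.0225) and Klf12 (0.63 ± 0.18, adjusted p 0.0344) rose with overlapping groups. Neither passed with averaged probe sets (0.0738 and 0.0592) or without wild-type 66 (0.0664 and 0.0928). Klf6 did not pass without wild-type 47 (0.0691), R62_105 (0.0534) or R62_109 (0.0536) either, nor Klf12 without wild-type 49 (0.0736), R62_86 (0.0761), R62_105 (0.0785) or R62_107 (0.0705). The remaining rise, the dim Wt1 (0.51, adjusted p 0.0434; named after its value was seen), also had overlapping groups. The count of rises was 0 without wild-type 66 and 1 without wild-type 47, R62_86, R62_105 or R62_107. With averaged probe sets or among the brighter genes it was 1, and with array weights 5.

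**Figure D3:**
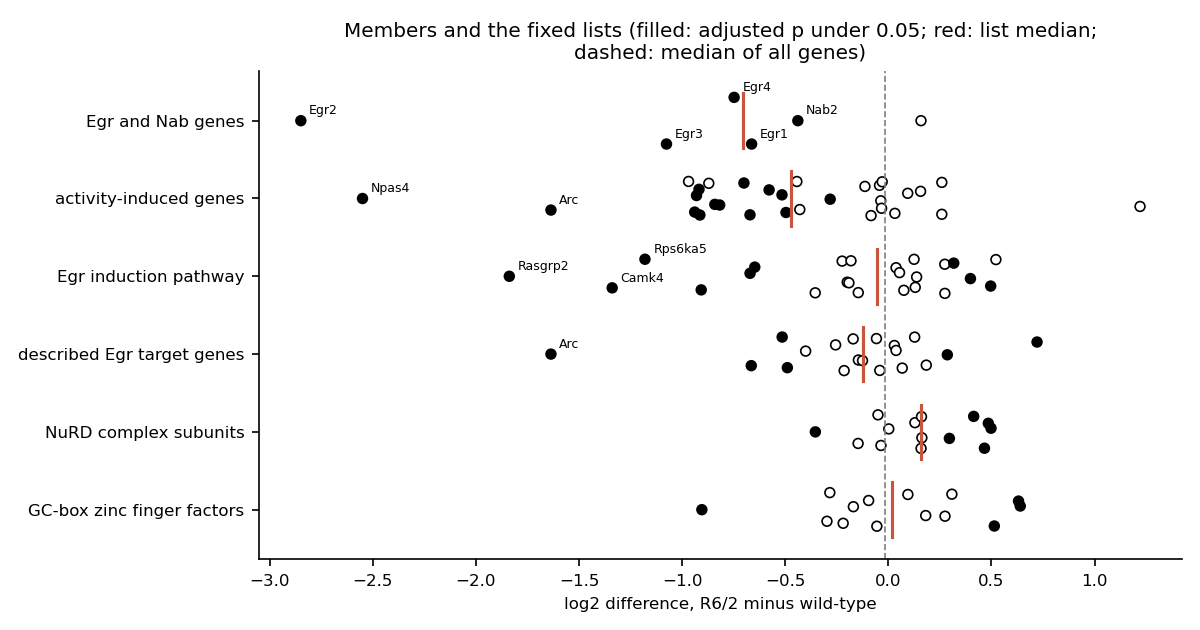
Log2 difference, R6/2 minus wild-type, of the 6 members and of the genes of 5 fixed lists, each point a gene, filled where the adjusted p was under 0.05, with the list median in red and the median of all genes dashed. Of the 30 activity-induced genes 80.0% lie below 0 and 14 are filled, and the other lists lie on both sides.

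The tissue samples also differed in cell type markers. The bulk values cannot tell fewer cells of a type from less RNA per cell. Over all genes, dim ones included, 7.57% were called lower and 9.27% higher. By these shares, 1 call in a list of 9 or 10 markers, as for the lower calls of cortex and oligodendrocyte markers, lies near the level of all genes. For spiny projection neurons, which make up most striatal neurons, the mean log2 value of the 16 measured markers was 11.41 to 11.70 in wild-type and 9.68 to 10.53 in R6/2 mice, and 15 of the 16 fell, at a median of -1.46. Markers of cortical projection neurons rose in 4 of 10 cases and fell in 1, and their mean was 6.06 to 6.97 in wild-type and 6.76 to 7.57 in R6/2 mice. None of the 9 choroid plexus and ependyma markers passed, but their mean was 8.24 and 8.32 in wild-type 47 and 66 against 5.69 in each of wild-type 46 and 49, and 5.25 to 6.83 in R6/2 mice. No marker of any of these lists was at 0, a level that RMA values do not reach. The mean of the 9 endothelial and mural markers, of which 0 passed, was 7.87 in wild-type 66 and 7.36 in wild-type 49, the highest and the lowest of the controls, as for the Egr genes, and 7.51 to 7.87 in R6/2 mice. Lower calls were made for 7 of 10 astrocyte, 5 of 9 microglia, 4 of 5 cholinergic, 3 of 9 GABA interneuron, 1 of 9 oligodendrocyte and 1 of 3 Schwann cell markers, the last being Pmp22, and for 0 of 6 thalamus and midbrain and 0 of 3 blood markers. None of these lists had a higher call, and the part of these cell types in the Egr and Nab values was not tested, apart from the covariate fits for cortex and choroid plexus.

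**Figure D4:**
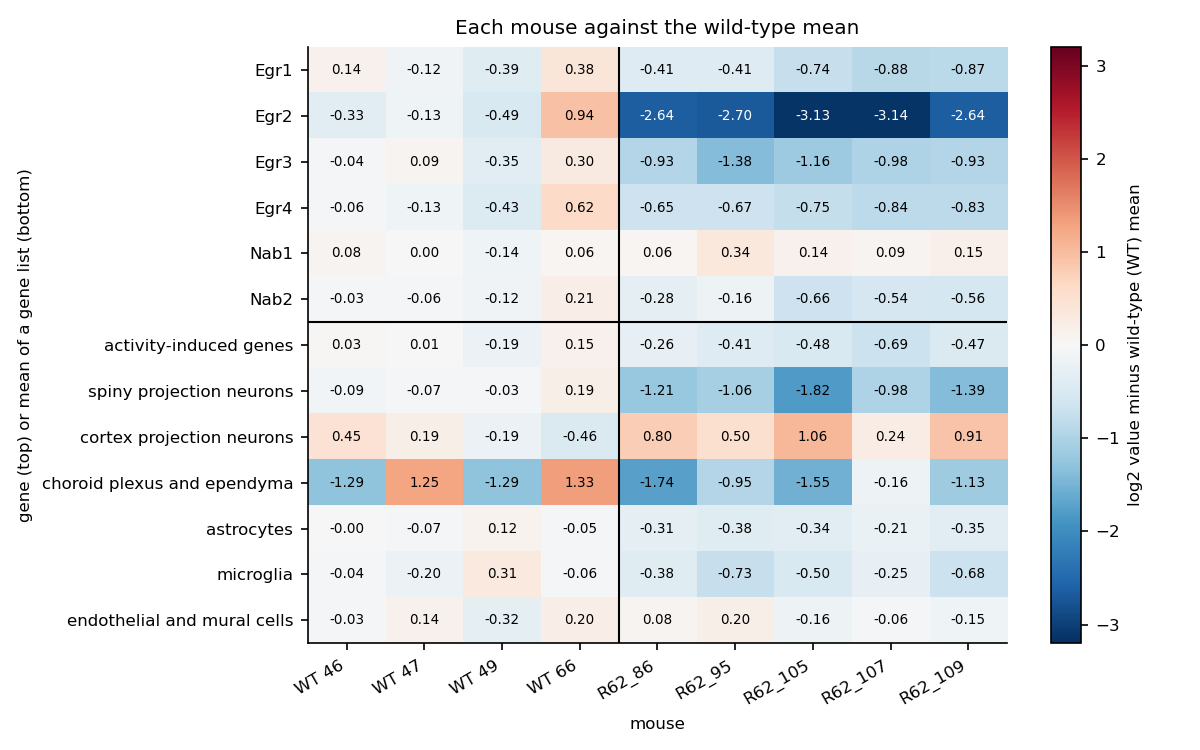
Log2 value of each mouse minus the wild-type mean (colour and number), for the 6 members above the line and for the mean of 7 gene lists below it. In R6/2 mice Egr2 lies at -3.14 to -2.64 and the mean of the spiny neuron markers at -1.82 to -0.98, and the choroid plexus markers split the wild-type mice 46 and 49 from 47 and 66.

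With such a mean as a covariate, the calls of Egr2 and Egr3 held and those of Egr1, Egr4 and Nab2 did not. The lost calls went with wider SEs as well as smaller differences. For Egr1 the SE was 0.16 in the main fit, 0.24 with the cortex and 0.19 with the choroid plexus markers. Over all genes 3065 passed in the main fit, against 330 with the cortex and 1997 with the choroid plexus markers. What accounts for the lost calls was not tested. With the cortex markers Egr2 was -2.50 (adjusted p 0.013) and Egr3 -1.04 (0.0361), against -0.62 (0.252) for Egr1, -0.56 (0.293) for Egr4 and -0.29 (0.41) for Nab2. With the choroid plexus markers Egr2 was -2.60 (0.000939) and Egr3 -0.94 (0.00345), against -0.61 (0.0649), -0.59 (0.056) and -0.39 (0.0824). Leaving out the 3 arrays highest in choroid plexus markers (wild-type 47 and 66, R62_107) left only wild-type 46 and 49 as controls. In that fit Egr2 was -2.37 (0.00345), Egr3 -0.91 (0.026), Egr1 -0.48 (0.184), Egr4 -0.48 (0.0666) and Nab2 -0.34 (0.226). With the cortex markers as a covariate 4 activity-induced genes fell and 0 targets, NuRD subunits or other zinc finger factors passed in either direction, and 4 genes of the inducing route fell and 1 rose. With the choroid plexus markers 11 activity-induced genes, 6 genes of that route, 4 targets, 1 NuRD subunit and 1 other zinc finger factor fell. In that fit 3 genes of the route and 2 NuRD subunits rose, and 0 activity-induced genes, targets or other zinc finger factors did. Without the 3 arrays, 5 activity-induced genes, 6 genes of the route, 1 target and 1 other zinc finger factor fell. There 1 gene of the route rose, and 0 targets and 0 NuRD subunits did. Age nearly followed genotype, as only R62_86 was as old as the wild-type mice. Its value minus the wild-type mean was -2.64 for Egr2, -0.93 for Egr3, -0.65 for Egr4, -0.41 for Egr1 and -0.28 for Nab2. With age as a covariate 0 members passed in limma, the lowest adjusted p being 0.0527 for Egr2, and genotype and age within the R6/2 group cannot be told apart beyond that mouse.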

How the data were processed

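The deposited values are log2 expression of 45101 probe sets on 9 arrays. The submitters' processing notes name RMA and affy, as used by the authors, with no version. RMA makes arrays share 1 distribution, so differences are relative to the other genes. Array medians were 5.37 to 5.45, no pair of arrays held the same values (at most 3.93% identical), and the number of arrays limits the precision. Each array is a mouse by its label.

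Gene names came from the platform's annotation table (34945 named 1 gene, 932 several, 9160 were not listed, 64 were controls), and 34741 matched RefSeq of GRCm38.p6. The probe set with the highest mean represented each of 18194 genes. Genotypes were compared with limma 3.58.1 in R 4.3.3 (lmFit, eBayes, genotype only). Two-sided p-values were adjusted by Benjamini-Hochberg over the 18194 genes and called under 0.05; other probe sets were adjusted over all probe sets naming 1 gene. Intervals are 95%. The fit was tested on simulated data with known changes. It recovered 53.7% of changes of log2 0.5, 94.0% of those of 1 and 98.5% of those of 2, and 2.96% of its calls were false. Few genes were changed there and the noise was independent between genes, unlike in these data. The 6 members were compared in pairs by exact permutation.

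The 5 gene lists and 12 marker lists held 222 entries, 199 of them measured. Members and lists were chosen with earlier results of these data known. Named were the members, the 3 genes of smallest p in each list with the best-supported one against its median, and for each member the 3 genes most alike over the arrays; others are marked in the text. Alternatives were other probe set rules, a filter on dim genes, 3 scalings, 3 variance models, 3 covariates, a stricter threshold, the mice of 85 days, an exact test and each mouse left out; leaving out the 3 arrays highest in choroid plexus markers was chosen after seeing the data.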

Additional observations from a re-analysis of the deposited data

Results flagged for a closer look

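In 90 groups tested (the members' probe sets and the other named genes, in each genotype), 4 had a mouse far from the rest, where chance gives about 1 in 20. This count is near that rate. R62_95 was low for a Nab1 probe set (6.84 against 7.08 to 7.13 in the other R6/2 mice). The same mouse was high for Uimc1 (8.08 against 7.79 to 7.86) and Hars2 (8.02 against 7.67 to 7.72), both chosen for their likeness to Nab1. R62_95 was also the highest R6/2 mouse on the main Nab1 probe set, so both values follow in part from that choice. Wild-type 49 was high for Hdac1 (7.67 against 7.32 to 7.36 in the other wild-type mice).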

How the results depend on the processing

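No paired analysis was possible because the groups share no animal numbers. The count of 5 lower members was the same with all probe sets tested, averaged probe sets, quantile, median and housekeeping scaling, trend and robust eBayes and array weights, and 4 or 5 with any mouse left out. Among the brighter 50% of genes it was 4, since Egr2 is not among these genes. It was 2 (Egr2 and Egr3) without moderation, with either marker covariate, at 0.01 and without the 3 choroid-rich arrays, and 0 with age. No member was higher under any of these settings. The number of unequal pairs, 10, was 9 with averaged probe sets, 10 with the other scalings and 9 to 12 with a mouse left out. Over all genes 3065 passed, against 2006 without moderation, 30 with age, 330 with the cortex and 1997 with the choroid plexus covariate, 1257 at 0.01 and 882 without the 3 arrays. Of genes in the 5 lists 25 were lower, against 0 with age, 8 with the cortex covariate and 13 without the 3 arrays. There 13 were higher, against 4 with housekeeping centring, 6 without moderation, 0 with age, 1 with the cortex and 5 with the choroid plexus covariate, 2 at 0.01, 1 without the 3 arrays and 7 to 12 with a mouse left out. Genes near 0 changed sign without passing. C2cd3 was -0.030 with averaged probe sets, -0.038 with quantile scaling, -0.013 with median centring, -0.10 with housekeeping centring, -0.036 with array weights and -0.055 to 0.057 with a mouse left out. Gtpbp1 was 0.026 and Zmat3 0.078 without the 3 arrays, Pigl 0.023 with averaged probe sets, and Zmat3 0.0066 and 0.034 with the cortex and choroid plexus covariates and -0.20 to 0.050 with a mouse left out. The causes were not tested.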
